A study of Homo sapiens with 8 samples.

Results

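The Hedgehog receptors and GLI factors are 7 genes: PTCH1, HHIP, SMO, SUFU, GLI1, GLI2 and GLI3. They were taken as every probe set of the value table whose platform annotation names 1 of them, which gave 21 of the 54613 probe sets tested and 7 of 19775 genes. A probe set is a group of short oligonucleotides on the array that reads 1 stretch of a transcript, and none of the 21 names a second gene. PTCH1 has 5 probe sets, HHIP and SUFU have 4 each, GLI2 and GLI3 have 3 each, and SMO and GLI1 have 1 each.

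Expression was measured in MDA-MB-231, an established human line of metastatic breast cancer with mutant p53. All cells, untreated and treated, had been infected with a retrovirus that expresses a hairpin RNA against GFP, which serves as the control hairpin. Whether the infected cells were a pool or 1 clone is not given in the sources used here. Cells were kept without serum for 24 h, and 4 samples were then left untreated while 4 received TGFβ for 3 h at a labelled dose of 5 µg/ml, so both groups were starved. The series asks which genes TGFβ and mutant p53 control jointly; its p53-depleted cells were not analysed here. TGFβ is usually dosed in ng/ml, and the unit of the label is uncertain. Each group has 4 biological replicates, lettered A to D, as the labels call them. What a letter stands for is not explained there, and p-values reflect the spread between these 8 arrays.

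Values are RMA signals on a log2 scale, with array medians of 4.63 to 4.66. Without detection calls, weak expression and background look alike. As a reference for genes that these cells do not use, 135 probe sets of olfactory receptor genes had a median signal of 3.40 and a 95th percentile of 5.35. Of the 21 Hedgehog probe sets 11 had a mean signal below that percentile. They were 3 of PTCH1, 2 of HHIP, 3 of SUFU, 2 of GLI2 and 1 of GLI3. Probe sets differ in how well they bind, so this places a signal against background and does not rank the genes. All 7 markers of the line were above the percentile, led by VIM at 13.64 untreated, against 0 of 3 leukocyte and 0 of 3 fibroblast markers. Of the endothelial markers 1 of 3, PECAM1, was above it, as were 3 of 5 luminal breast markers. The mean of the 5 luminal markers was 5.70 to 5.88 on untreated arrays and 5.86 to 6.06 on treated ones. Among them CDH1 rose by 0.90 (adjusted p = 0.00579 over genes, limma), from a mean of 4.08 to 4.98, both below the percentile. PECAM1 had -0.43 (adjusted p = 0.207; 0.0155 with the replicate letter as a block). The part of these markers in the results of the Hedgehog genes was not tested. SMAD7, the inhibitory SMAD that TGFβ induces as feedback, rose by 1.81 ± 0.21 SE (log2, adjusted p = 0.0039 over genes, limma), higher in 4 of 4 same-letter pairs. SKIL, a further TGFβ reference gene, was higher by 1.405 ± 0.35 SE, also in 4 of 4 pairs, but the groups overlapped. It passed only with the block (limma adjusted p = 0.157 without it and 0.00205 with it). A gene that did not pass is therefore not shown to be unchanged.

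Hedgehog ligands bind the membrane receptor PTCH1, which otherwise holds SMO, the signal-transducing membrane protein, inactive. Once SMO is active, the cytoplasmic inhibitor SUFU releases the GLI transcription factors: GLI2 acts mainly as an activator, GLI3 mainly as a repressor after it is cleaved, and GLI1 is an activator whose own gene is a target. PTCH1 and HHIP, a membrane protein that binds and sequesters the ligands, are also targets and act as negative feedback. GLI2 is known as a gene that TGFβ can induce through SMAD3 in several cell types, and in breast cancer cells for its part in bone metastasis.

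Promoters are shown for PTCH1, HHIP and GLI2, the genes with a probe set that passed with or without the replicate letter in the fit, since GLI and SMAD factors are known regulators of such genes. The table of RefSeq sequences used here (GRCh38.p14) matched 5 of the 7 genes with 10 windows in all, of which the 250 bases before each start are used. The GLI consensus GACCACCCA and the SMAD element CAGAC were searched on both strands; the motifs do not overlap here, and capitals mark the matches. Of the 5 windows of PTCH1, 1 holds the GLI consensus, in reverse complement (TGGGTGGTC), with its first base 172 bases before the start. It is the only one of the 10 windows with that match. Over all genes 0.199% of 35116 windows of the same length hold it, while CAGAC is in 38.0%. Among the 10 windows CAGAC is in 5: 3 of PTCH1, though not the one shown, 1 of SUFU and 1 of GLI2. The PTCH1 window lies at chr9:95509267-95509516 on the minus strand, the HHIP window at chr4:144645906-144646155 on the plus strand, and the GLI2 window, from the more downstream of its 2 starts in the table and shown for its CAGAC match, which the other window lacks, at chr2:120792031-120792280 on the plus strand. A match is a description of letters and shows no binding.

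PTCH1: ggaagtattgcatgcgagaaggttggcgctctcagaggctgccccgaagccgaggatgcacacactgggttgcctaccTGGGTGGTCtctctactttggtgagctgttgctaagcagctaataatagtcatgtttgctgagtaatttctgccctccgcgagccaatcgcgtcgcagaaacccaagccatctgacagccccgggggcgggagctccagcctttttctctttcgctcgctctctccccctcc

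HHIP: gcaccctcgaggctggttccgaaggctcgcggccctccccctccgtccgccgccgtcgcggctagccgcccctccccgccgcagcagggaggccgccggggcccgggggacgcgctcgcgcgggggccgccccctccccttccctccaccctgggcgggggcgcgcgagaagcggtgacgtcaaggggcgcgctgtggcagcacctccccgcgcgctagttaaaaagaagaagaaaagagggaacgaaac

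GLI2: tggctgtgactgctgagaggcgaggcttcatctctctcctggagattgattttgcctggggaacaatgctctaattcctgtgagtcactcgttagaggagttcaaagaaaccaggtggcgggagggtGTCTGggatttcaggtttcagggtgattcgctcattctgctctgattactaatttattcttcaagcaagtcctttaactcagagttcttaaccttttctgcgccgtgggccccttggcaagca

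After TGFβ a single PTCH1 probe set fell, and the other 20 Hedgehog probe sets did not pass the test over all probe sets (limma, Benjamini-Hochberg adjusted p under 0.05). Of the 21, 0 rose and 1 fell, where 0.152% of all 54613 probe sets rose and 0.104% fell (0.256% together). At an unadjusted p under 0.05 there were 5 higher, 2 of them of GLI2, and 3 lower, 2 of them of GLI3. The share of all probe sets at that threshold is not given here, so these counts have no background to be read against. Same-letter arrays of the groups deviated together. With the letter as a block in the fit 5 rose (4 of HHIP and 1 of GLI2) and 1 fell (PTCH1). Over all probe sets 0.758% rose and 0.989% fell, 1.75% together. The 4 HHIP probe sets read 1 gene on the same arrays. With 1 probe set a gene, PTCH1 and HHIP passed with the block (limma adjusted p = 0.000396 and 0.0198). The other members did not (GLI2 at 0.0595), where 3.57% of all 19775 genes passed. The median size of the log2 fold change, without its sign, was 0.23 over the 21 and 0.09 over all probe sets. The groups did not overlap in 4 of the 21, against 4.75% of all probe sets.

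**Figure D1:**
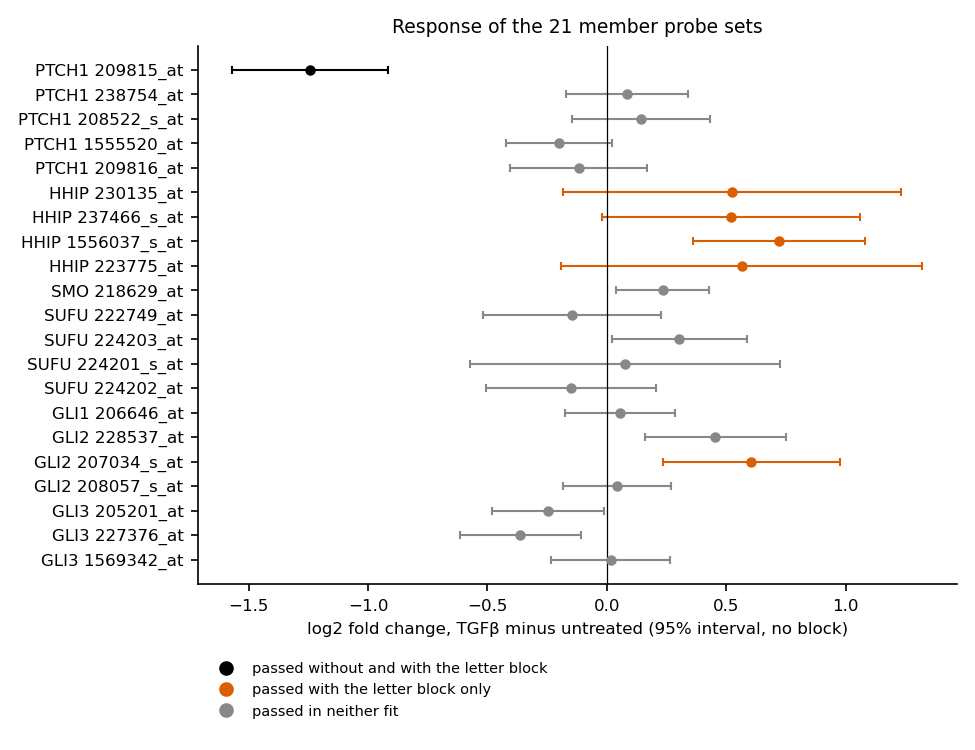
Log2 fold change (TGFβ minus untreated) with its 95% interval from the fit without a block for each of the 21 probe sets, 4 arrays a group. PTCH1 209815_at stands at -1.24 while the other 4 PTCH1 probe sets lie near 0, and the 4 HHIP probe sets lie together between 0.52 and 0.72.

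PTCH1, the Hedgehog receptor, was lower after TGFβ by its highest-signal probe set, 209815_at. The log2 signals were 6.13, 6.39, 6.36 and 6.36 on untreated arrays A to D, and 5.22, 5.25, 4.61 and 5.19 on treated arrays A to D. The groups did not overlap, all 4 same-letter differences were negative (-0.91, -1.14, -1.75 and -1.17), and the lowest value was that of treated array C. The mean went from 6.31 ± 0.12 to 5.07 ± 0.31 (SD, n = 4 in each group), which is -1.24 ± 0.15 SE on the log2 scale (adjusted p = 0.01). All 4 untreated values were above the olfactory receptor percentile of 5.35 and all 4 treated values below it, so the size of the decrease is uncertain and no linear fold is given. In RNA of whole cultures, fewer cells that use a gene and less RNA per cell cannot be told apart. The call was lost without untreated replicate C (log2 fold change -1.23, adjusted p = 0.0574) or untreated replicate D (-1.23, adjusted p = 0.0574). It held in the other 6 fits without 1 array, and in all 4 fits with the letter block that left out a letter (adjusted p up to 0.0231).

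The other 4 PTCH1 probe sets did not show this decrease. Probe set 238754_at had a mean signal of 5.45, only just above the olfactory receptor percentile of 5.35. Untreated arrays B and D and treated array B lay below that percentile, and whether background limited the response of this probe set was not tested. The signals were 5.58, 5.27, 5.54 and 5.24 untreated and 5.47, 5.32, 5.68 and 5.49 treated. These groups overlapped, and the log2 fold change was 0.08 with a 95% interval from -0.17 to 0.34 (adjusted p = 0.923). Probe set 208522_s_at had 0.14 (interval -0.15 to 0.43), 1555520_at had -0.20 (-0.42 to 0.02) and 209816_at had -0.12 (-0.40 to 0.17), and these 3 lay below the olfactory receptor percentile, with mean signals of 3.91, 2.89 and 2.87.

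Whether the probe sets of a gene responded differently was tested on the difference between each of them and the highest-signal probe set on the same array, over all 21316 such differences in the table, of which 0.0281% passed. The response of 238754_at was above that of 209815_at by 1.33 ± 0.22 SE (log2), with an interval from 0.83 to 1.82. It did not pass after adjustment (adjusted p = 0.104) and passed with the letter block (adjusted p = 0.0369, where 0.314% of differences passed). For 1555520_at the difference was 1.04 ± 0.14 SE (adjusted p = 0.0519; 0.0355 with the block). For 208522_s_at and 209816_at it was 1.39 ± 0.23 and 1.12 ± 0.24 SE (adjusted p = 0.111 and 0.213), without a call in either fit. All 4 intervals, which are not adjusted for the number of differences, excluded 0. The 4 compared probe sets had mean signals below or close to the olfactory receptor percentile, and whether that limited their response was not tested. Which stretch of the PTCH1 transcripts each probe set reads was not analysed here. With 209815_at standing for the gene, PTCH1 passed over all genes (limma adjusted p = 0.00379, and 0.000396 with the block). In that test over genes it passed in all 8 fits without 1 array (adjusted p up to 0.0265). When the 5 probe sets were averaged, the log2 fold change of the gene was -0.27 and did not pass (adjusted p = 0.193).

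**Figure D2:**
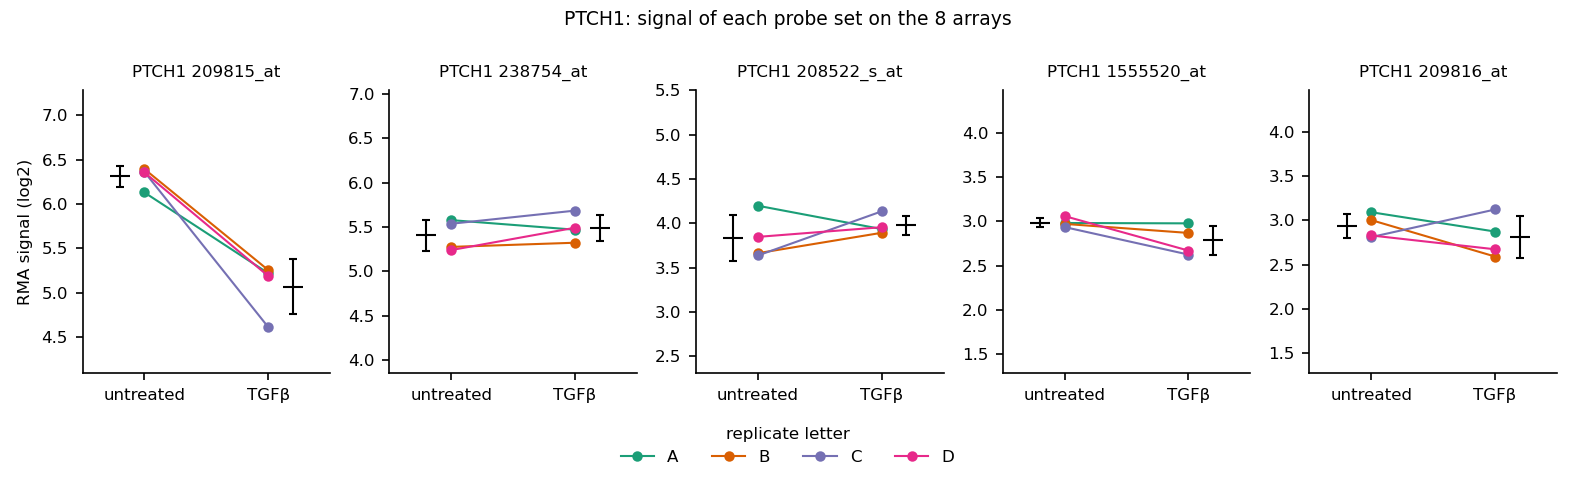
Signal (log2) of the 5 PTCH1 probe sets on the 8 arrays; lines join arrays with the same replicate letter, and bars beside them give the mean and SD of 4 arrays. In 209815_at all 4 lines fall, from a mean of 6.31 to 5.07, while 238754_at stays between 5.24 and 5.68.

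Among 11858 genes in the upper 60% of signals, those nearest to PTCH1 209815_at were found by the root mean square difference over the 8 arrays between profiles centred on the untreated mean. They were IFIT2, an interferon-induced RNA-binding protein (0.193), TMCC3 (0.199), TRERF1, a transcriptional regulator (0.23), MAP3K5, a stress-activated kinase (0.308), and MERTK, a receptor tyrosine kinase (0.314). All 5 fell, with log2 fold changes from -1.16 to -0.89 (adjusted p between 0.00182 and 0.0147 over genes), and being chosen for likeness they are a description only.

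HHIP, the decoy that sequesters Hedgehog ligands, was higher on the treated array of every same-letter pair in all 4 of its probe sets, and rose in each of them in the fit with the letter block. Probe set 1556037_s_at read 4.53, 4.91, 4.81 and 4.99 on untreated arrays A to D and 5.07, 5.63, 5.78 and 5.64 on treated arrays A to D. The groups did not overlap, and the means were 4.81 ± 0.20 and 5.53 ± 0.32 (SD, n = 4 in each group). The log2 fold change was 0.72 ± 0.16 SE, with adjusted p = 0.166 without the block and 0.00776 with it. The mean signals of this probe set (5.17) and of 223775_at (3.99) lay below the olfactory receptor percentile. In the fits without the block that left out 1 array, 1556037_s_at ranged from 0.63 to 0.88 and passed only without treated replicate A (adjusted p = 0.0197).

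The other HHIP probe sets had differences of similar size, but a wider spread between letters. The highest-signal one, 230135_at, read 5.21, 6.58, 5.90 and 6.31 untreated and 5.99, 7.26, 6.26 and 6.59 treated, so that the groups overlapped while each pair rose, by 0.78, 0.68, 0.36 and 0.29. Its log2 fold change was 0.52 ± 0.32 SE without the block (adjusted p = 0.787) and 0.52 ± 0.11 SE with it (adjusted p = 0.0485). Probe set 237466_s_at had 0.52 (adjusted p = 0.692; 0.0247 with the block) and 223775_at had 0.57 (adjusted p = 0.785; 0.0162 with the block). Without the block, leaving out untreated replicate A lowered 230135_at to 0.26, 237466_s_at to 0.34 and 223775_at to 0.26. Leaving out treated replicate B gave 0.28 for 230135_at and 0.37 for 223775_at. Array A was the lowest of its group in 4 of 4 HHIP probe sets, both untreated and treated.

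The responses of the 4 HHIP probe sets could not be told apart. Against 230135_at the differences were -0.01 (interval -0.41 to 0.40), 0.20 (-0.38 to 0.77) and 0.04 (-0.27 to 0.35), so that differences of up to 0.77 are not excluded. Most of the block calls of HHIP were lost when a letter, and with it 2 of the 8 arrays, was left out. Without letter B none of the 4 probe sets passed (adjusted p between 0.0672 and 0.235). Without letter A 3 passed (adjusted p between 0.00607 and 0.0295), with 230135_at at 0.08. Without letter C 1556037_s_at and 223775_at passed (0.046 and 0.0493), with 230135_at and 237466_s_at at 0.122 and 0.12. Without letter D only 1556037_s_at passed (0.0383), and 230135_at, 237466_s_at and 223775_at were at 0.0883, 0.105 and 0.085. The log2 fold changes in these fits stayed between 0.44 and 0.78.

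**Figure D3:**
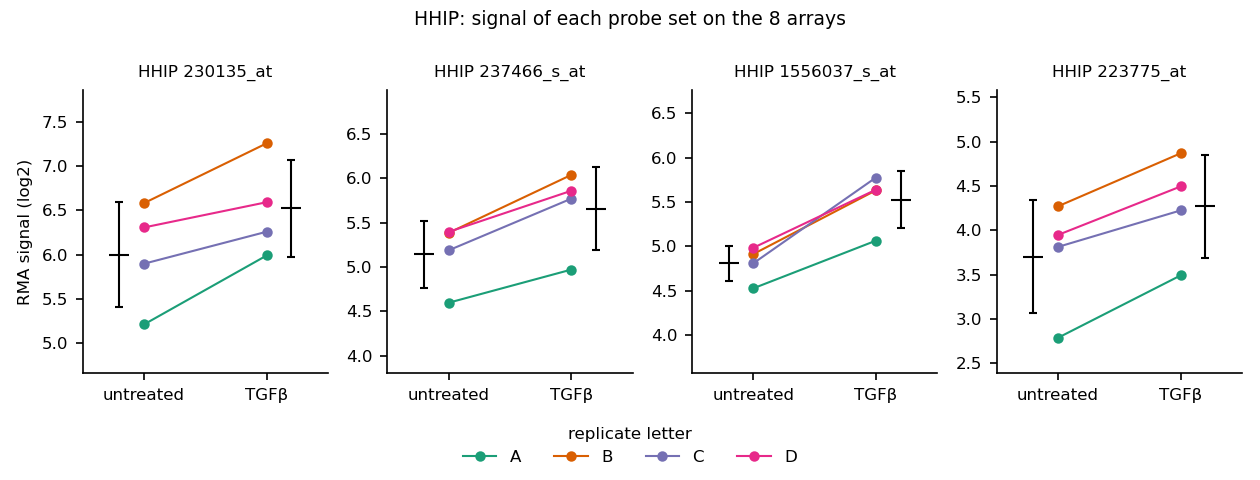
Signal (log2) of the 4 HHIP probe sets on the 8 arrays; lines join arrays with the same replicate letter, and bars give the mean and SD of 4 arrays. Every line rises, by 0.29 to 0.97, and the line of letter A is the lowest in each panel.

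SMO, the signal transducer below PTCH1, did not pass in either fit. Its probe set 218629_at read 5.15, 5.30, 5.36 and 5.16 untreated and 5.40, 5.50, 5.48 and 5.55 treated. The groups did not overlap, with every treated array above every untreated one. The difference was small, at 0.23 ± 0.09 SE (log2, adjusted p = 0.551; 0.282 with the block).

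SUFU, the cytoplasmic inhibitor of the GLI factors, had no probe set that passed, and its 4 probe sets lay on both sides of 0. The highest-signal one, 222749_at, read 6.53, 6.81, 6.78 and 6.998 untreated and 6.22, 6.49, 6.94 and 6.89 treated, with a log2 fold change of -0.15 (interval -0.52 to 0.23). Probe set 224203_at was higher in 4 of 4 pairs, at 0.30 ± 0.13 SE (adjusted p = 0.623; 0.155 with the block), although the groups overlapped. In 224201_s_at, at 0.08 ± 0.29 SE, the letters differed more than the groups: both A arrays were low, at 4.65 and 4.52, and arrays C and D lay between 5.52 and 5.79 in both groups. The fourth, 224202_at, had -0.15 (interval -0.51 to 0.21).

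GLI2, the main activator of the pathway, was higher after TGFβ by 2 of its 3 probe sets, of which 1 passed and only with the letter block. Probe set 207034_s_at read 4.86, 4.92, 4.50 and 4.45 on untreated arrays A to D and 5.45, 5.58, 5.22 and 4.89 on treated arrays A to D. All 4 pairs rose (by 0.59, 0.66, 0.73 and 0.44), though treated array D was below untreated array B. The means were 4.68 ± 0.24 and 5.29 ± 0.30 (SD, n = 4 in each group), or 0.61 ± 0.17 SE higher on the log2 scale (adjusted p = 0.292; 0.0116 with the block). That block call was lost without letter B (adjusted p = 0.0975) or C (0.0705). Its mean signal of 4.98 lay below the olfactory receptor percentile.

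The highest-signal GLI2 probe set, 228537_at, read 5.82, 5.85, 5.84 and 5.38 untreated and 5.94, 6.37, 6.18 and 6.21 treated. The groups did not overlap, and untreated array D stood apart at the low end. The log2 fold change was 0.45 ± 0.13 SE (adjusted p = 0.343; 0.115 with the block). With the block it passed without letter A (0.56, adjusted p = 0.0398). Probe set 208057_s_at read 3.66, 3.71, 3.81 and 3.84 untreated and 3.57, 3.93, 3.80 and 3.90 treated, overlapping, with 0.04 (interval -0.18 to 0.27). Against 228537_at the response of 207034_s_at differed by 0.15 (interval -0.25 to 0.55) and that of 208057_s_at by -0.41 (interval -0.74 to -0.08; adjusted p = 0.636, 0.312 with the block).

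The genes nearest to GLI2 228537_at by the measure used for PTCH1 were BMERB1 (0.104), SESN2, a stress-induced regulator of growth signalling (0.123), HRH1, a histamine receptor (0.13), WEE1, a kinase that restrains entry into mitosis (0.134), and RABGEF1P1 (0.147). None of these 5 passed without the block, at log2 fold changes of 0.29 to 0.49 (adjusted p between 0.223 and 0.439 over genes). With the block BMERB1 and HRH1 passed (0.0339 and 0.0318).

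GLI3, the member that acts mainly as a repressor, had lower signals on the treated array of every pair in its 2 brighter probe sets, without a call in either fit. Probe set 227376_at read 6.42, 6.30, 6.15 and 6.21 untreated and 6.18, 5.79, 5.88 and 5.77 treated, and only treated array A overlapped with the untreated arrays. Its log2 fold change was -0.36 ± 0.11 SE (adjusted p = 0.407; 0.1 with the block). Probe set 205201_at had -0.25 ± 0.11 SE (adjusted p = 0.634; 0.249 with the block), with untreated values of 6.55 to 6.71 and treated values of 6.17 to 6.59. The third, 1569342_at, lay at a mean signal of 3.15 and had 0.02 (interval -0.23 to 0.26).

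GLI1, the activator that is itself a target gene, showed no difference that could be detected with 4 arrays a group. Its probe set 206646_at read 6.02, 5.71, 5.91 and 5.64 untreated and 5.88, 5.79, 5.96 and 5.86 treated, with all treated values inside the untreated range. The log2 fold change was 0.06 ± 0.10 SE, with an interval from -0.17 to 0.29 (adjusted p = 0.948).

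**Figure D4:**
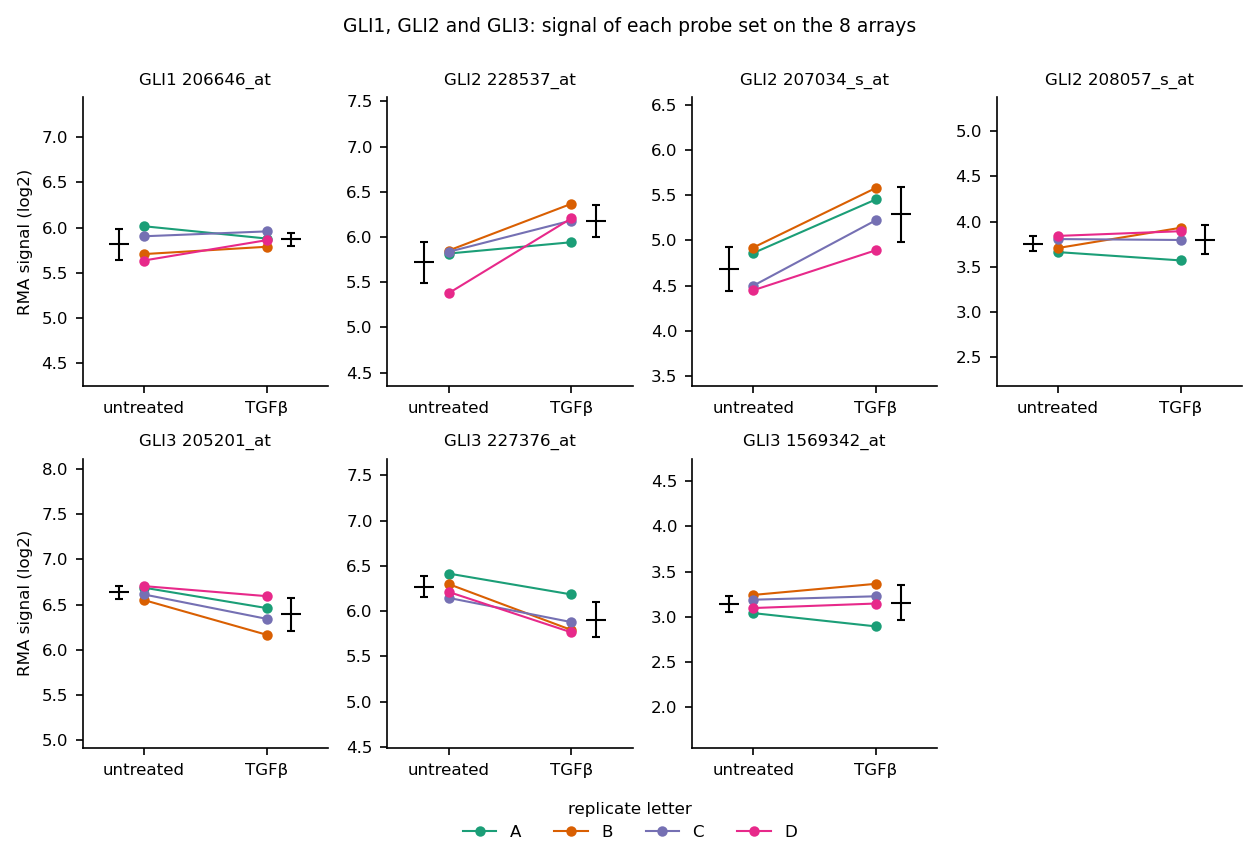
Signal (log2) of the 7 probe sets of GLI1, GLI2 and GLI3 on the 8 arrays; lines join arrays with the same replicate letter, and bars give the mean and SD of 4 arrays. All lines rise in GLI2 228537_at and 207034_s_at, all fall in GLI3 205201_at and 227376_at, and GLI1 stays between 5.64 and 6.02.

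Of the other genes of the pathway, from a list of 62 of which 56 were analysed here with 1 probe set a gene, 0 rose by limma, 1 fell and 55 did not pass. Over all 19775 genes 0.354% rose and 0.223% fell, 0.576% together. At an unadjusted p under 0.05 there were 3 higher and 3 lower, and the share of all genes at that threshold is not given here. Of the 56, 28 had a log2 fold change below 0, and the median of the 56 was 0.0011 against 0.009 over all genes. With the letter block 0 rose and 3 fell, where 1.39% of all genes rose and 2.18% fell (3.57% together).

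The gene that fell was BMP4, a ligand of the bone morphogenetic proteins and 1 of 21 reported GLI targets. It read 8.35, 8.71, 8.99 and 9.12 untreated and 6.90, 7.16, 7.79 and 7.75 treated, without overlap. The log2 fold change was -1.39 ± 0.22 SE (adjusted p = 0.0217). The call was lost without untreated replicate C (adjusted p = 0.107), untreated replicate D (0.0918) or treated replicate B (0.0625). With the letter block BMP4 passed (limma adjusted p = 2.45e-05). It also passed in all 4 block fits that left out a letter (adjusted p up to 0.000878). SNAI1, a repressor of epithelial genes, had 0.44 ± 0.13 SE (adjusted p = 0.233; 0.0754 with the block). CCND2, a D-type cyclin named here after its values were seen, had -0.52 ± 0.28 SE by its highest-signal probe set (adjusted p = 0.73, and 0.0147 with the block). Of its 4 probe sets 3, this one included, had a log2 fold change below 0. That block call was lost without letter B (0.0506), C (0.0907) or D (0.0922). Both mean signals of SNAI1 (4.77 untreated, 5.21 treated) and the treated mean of CCND2 (5.34) lay below the olfactory receptor percentile.

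Of the 3 ligands none passed in either fit. SHH, IHH and DHH, which encode the Hedgehog proteins, had log2 fold changes of -0.04, 0.06 and 0.05, at mean untreated signals of 5.50, 5.46 and 3.62. Of 4 genes for processing and release of the ligands and 5 co-receptors and decoys none passed in either fit. SCUBE2, a secreted protein that aids release of the ligand, had 0.22 ± 0.09 SE (adjusted p = 0.522) at mean signals of 3.15 untreated and 3.37 treated. DISP1, which exports the ligand from the cell, had -0.09 ± 0.12 SE (adjusted p = 0.938). LRP2, a large endocytic receptor, had 0.40 ± 0.15 SE (adjusted p = 0.446; 0.0629 with the block) at a signal of 2.76 to 3.16, and CDON, a co-receptor, 0.30 ± 0.21 SE (adjusted p = 0.821).

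Of 11 genes of the cilium and signal relay none passed in either fit. Those with the smallest p were IFT88, a protein of transport along the cilium (-0.21 ± 0.13 SE, adjusted p = 0.787), and ARRB1, a β-arrestin (-0.31 ± 0.21 SE, adjusted p = 0.813). Of 12 genes that process the GLI proteins 10 had a log2 fold change below 0, but the median of the 12 was only -0.049, against 0.009 over all genes. Of the 12, 1 fell, with the block only. It was NUMB, an adaptor that brings the ubiquitin ligase ITCH to GLI1, at -0.77 ± 0.29 SE (adjusted p = 0.459; 0.0279 with the block). That call was lost without letter B (0.123) or D (0.114). The mean signal of NUMB was 5.43 untreated and 4.66 treated, the latter below the olfactory receptor percentile. BTRC, the subunit of the ubiquitin ligase that recognises GLI proteins, had -0.21 ± 0.13 SE (adjusted p = 0.788).

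**Figure D5:**
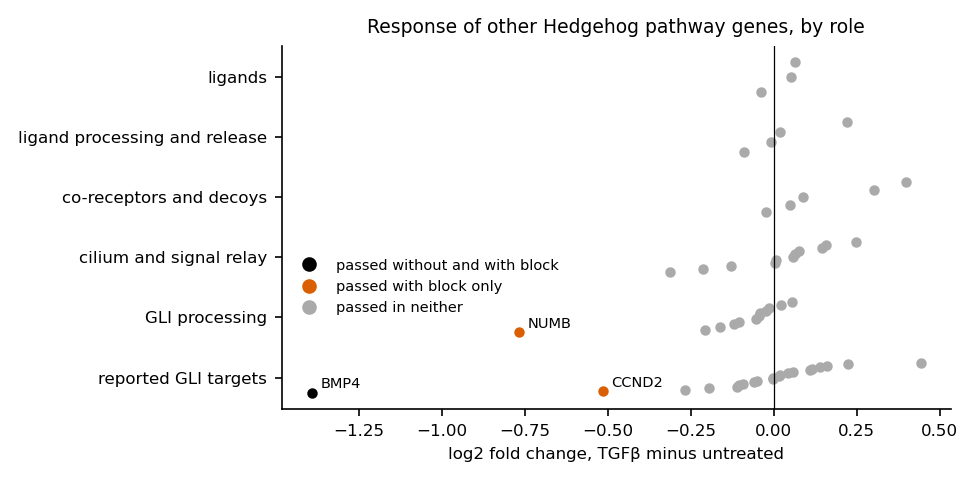
Log2 fold change (TGFβ minus untreated, horizontal) of the 56 other pathway genes, 1 probe set a gene, grouped by role; the vertical place within a role has no meaning. BMP4 stands at -1.39, NUMB and CCND2 at -0.77 and -0.52, and the other 53 lie between -0.31 and 0.44.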

How the data were processed

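Biotinylated cRNA from total RNA of 8 samples was hybridised to Affymetrix arrays, per the labels' protocols. The authors deposited 1 log2 value per probe set and array, made with RMA per the submitters' processing notes. RMA corrects background, normalizes between arrays and summarises probes. The RMA version is not given in the sources used here, nor is the set of arrays it was run on. The log2 base was inferred from the values.

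Of 54675 probe sets 62 Affymetrix controls were left out. GEO's platform annotation names 1 gene for 41091 of the others, several for 1801 and none for 11721; the first kind was used. Fits across all probe sets, across genes (the probe set with the highest mean stood for its gene) and across differences between probe sets of a gene were run in R 4.3.3 with limma 3.58.1 (eBayes with its default prior; two-sided; treated minus untreated). P-values were adjusted by Benjamini-Hochberg over everything tested, at a threshold of 0.05. Python 3.11.15 with matplotlib 3.10.9 drew the figures.

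Deviations from the group means correlated between arrays of a letter (A 0.414, B 0.593, C 0.263, D 0.237), a pairing read from the data alone. A second fit had the letter as a block, and its values are given where they change a call.

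The members, lists and tests were chosen with earlier results of these data known. Named are all members, the pathway genes that passed or had the 2 smallest p in their role, and the 5 genes nearest to PTCH1 and to GLI2. Alternatives were the block, the upper 60% of signals, median centring, quantile normalization again, a trended robust prior, other choices of the probe set of a gene, and each array or letter left out. The fits were tested on simulated data, in which each recovered planted changes except the fit of probe set differences with the block, which made no call, so that fit's misses are uninformative. The depth of an array is not defined, and their number limits the precision. Arrays of p53-depleted cells and 6 of the 62 listed pathway genes were not analysed here.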

Additional observations from a re-analysis of the deposited data

Results flagged for a closer look

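In 3 of the 42 groups of 4 arrays (21 probe sets in 2 groups) 1 array stood far from the others of its group by Dixon's gap criterion, which chance meets in about 1 of 20 groups. PTCH1 209815_at had its lowest untreated value on array A, at 6.13 against 6.36 for the next array. The same probe set had its lowest treated value on array C, at 4.61 against 5.19 for the next array. GLI2 228537_at had its lowest untreated value on array D, at 5.38 against 5.82 for the next array.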

How the results depend on the processing

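The PTCH1 209815_at decrease kept its direction under every alternative run, and its call over all probe sets except without untreated replicate C or D. Over all member probe sets, 321 of 350 alternative values kept direction and call, 15 gained a call, 2 lost one and 12 changed sign, in 4 probe sets; of 354 for named genes 336 kept both, and of 147 for differences between probe sets 135. With the replicate block, 954 probe sets in place of 140 passed, 705 genes in place of 114, 6 member probe sets in place of 1, 3 pathway genes in place of 1 and 67 probe set differences in place of 6. With the block and without letter A, B, C or D the counts were 1416, 282, 389 and 384 probe sets and 1304, 288, 321 and 356 genes. They were 6, 1, 3 and 3 member probe sets and 3, 2, 2 and 1 pathway genes. Leaving out 1 array gave 33 to 240 probe sets, 46 to 232 genes, 0 to 2 member probe sets, 0 to 1 pathway genes and 1 to 20 probe set differences. With the upper 60% of signals 2 differences passed. With multi-transcript probe sets left out 0 pathway genes passed by limma, since the only probe set of BMP4 is of that kind.

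Sign changes were seen in values near 0. With 1 array left out, SUFU 224201_s_at ranged from -0.11 to 0.33, GLI1 from -0.0038 to 0.12, GLI2 208057_s_at from -0.001 to 0.12 and GLI3 1569342_at from -0.053 to 0.10. So did the differences of HHIP 237466_s_at (-0.13 to 0.11), HHIP 223775_at (-0.033 to 0.12) and SUFU 224202_at (-0.12 to 0.10). With the block, GLI1 was -0.00033 without letter D, GLI2 208057_s_at -0.017 and GLI3 1569342_at -0.0197 without letter B, and DHH -0.009 without letter C and -0.0037 without letter D. GLI3 1569342_at was -0.0105 after quantile normalization again, SUFU was 0.021 as the mean of its probe sets, and BTRC was 0.11 without multi-transcript probe sets. The number of arrays and the low signal of 11 member probe sets limit what could be detected; the causes of these changes were not tested.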
